A study of Rattus norvegicus with 16 samples.

Results

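Glomeruli of rats that had been injured with puromycin aminonucleoside and given GQ-16 were compared with glomeruli of uninjured rats, to describe which genes still stood apart from control when the drug had been given after injury. The comparison takes 8 of the 16 libraries of the series, 4 from the group labelled PAN_GQ-16 and 4 from the group labelled Ctl, and it covers all 13222 genes in the deposited table. The 8 libraries were chosen by their group labels alone, and no measured value entered that choice. All rats were male Wistar rats, and glomeruli were isolated on day 11 by passing kidney tissue through sieves. The control rats are labelled healthy, and the labels do not say whether they were given vehicle by vein or by gavage. The GQ-16 rats received puromycin aminonucleoside by vein and then GQ-16 by gavage each day. The 2 other groups, also of 4 rats each, had the same injury and received by gavage either a sham vehicle (labelled PAN) or pioglitazone. Doses are not in the labels, and puromycin, GQ-16 and gavage cannot be told apart in a contrast with healthy rats, since every GQ-16 rat had received all of them.

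Podocytes are the epithelial cells that cover the outside of the glomerular capillaries with interlocking foot processes, joined by the slit diaphragm. Puromycin aminonucleoside injures these cells in rats and produces heavy proteinuria, and it is a standard model of nephrotic syndrome. Pioglitazone and GQ-16 are ligands of the nuclear receptor PPAR gamma, pioglitazone a full agonist and GQ-16 a partial one. Injured podocytes are known for rearranged actin, for a rise in the intermediate filament protein desmin, and for changes in the matrix and cell cycle proteins they make.

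The deposited values are log2 CPM values, read counts scaled to library size, and each library was centred on its median over all listed genes. Levels are printed below as median-centred CPM, which are the centred values taken back to the linear scale at the median library. Libraries held between 13351137 and 21977663 reads assigned to listed genes. The share of reads from mitochondrially encoded genes was 16.4% ± 11.2 (SD, n = 4) in GQ-16 rats and 26.3% ± 11.8 in control rats, a difference of -9.89 percentage points (exact permutation test, two-sided, p = 0.229, adjusted p = 0.343 over 3 library measures). The mean centred log2 level of 41 podocyte genes was 3.48 in control rat 1 and 2.01, 1.85 and 2.46 in control rats 2, 3 and 4. In GQ-16 rats 1 to 4 the podocyte level was 3.19, 2.68, 3.65 and 3.94. The mean level of 49 tubule genes was 2.38, 2.45, 2.47 and 2.24 in the control rats and 2.28, 1.84, 1.73 and 1.41 in the GQ-16 rats. Rat numbers follow accession order and are names only. The labels do not describe how the 4 samples of a group were obtained beyond one rat title each, so p-values measure the spread between these samples. In such bulk samples, fewer cells of a type and less RNA per cell cannot be told apart.

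In the GQ-16 rats, 87 genes were higher and 13 lower than in control rats at an adjusted p under 0.05 (limma, Benjamini-Hochberg over 13222 genes). These are 0.658% and 0.0983% of the genes tested, 0.756% in all. Among the rises were 4 of 20 genes on a striated muscle list, the sarcomere genes Synpo2l, Myom2 and Ldb3 and the muscle glycogen phosphorylase Pygm. Collagen I, a set of secreted and neuronal-type proteins (Nptx2, Scg2, Sv2a), the vasodilator peptide adrenomedullin and the cytokine signalling inhibitor Socs1 were also higher. The falls were small, the deepest being Klf12, and included the growth factor receptor Met. In this fit no podocyte slit diaphragm gene, endothelial gene, mesangial gene, tubule gene or leukocyte marker on the lists examined passed the test. For 96 of the 100 genes, the 4 GQ-16 rats and the 4 control rats did not overlap. Over all genes, 11.6% showed no overlap between these 8 rats. A fit of the 2 groups alone called 7 genes, 6 of them among the 100, and voom on the reads called 35, all among the 100.

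Of the 87 higher genes, 51 were at least 2-fold higher, and their median log2 difference was 1.11. All 87 are protein coding. Among the 13 lower genes, 1 passed 2-fold, and the median was -0.59. Over all genes the median difference was -0.01. At an unadjusted p under 0.05, 1804 genes were higher and 1334 lower, 13.6% and 10.1% of those tested. Without centring, the median of all genes lay 0.19 log2 higher in the GQ-16 libraries, and 25 genes passed, all of them higher.

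The same fit gave 841 higher and 236 lower genes for PAN against control, 1077 in all or 8.15% of genes tested, and 2894 higher and 70 lower without centring. Both contrasts use the same 4 control rats, so their values are given side by side without a test of overlap. Of the 87 genes higher under GQ-16, 83 also passed as higher in PAN against control, beside 841 of all 13222 genes. The 87 genes had a median difference of 1.44 in PAN against control. In 54 of them the PAN rats were further from control than the GQ-16 rats. The direct test is GQ-16 against PAN. It called 0 of 13222 genes (limma, smallest adjusted p = 0.0962), with 857 at an unadjusted p under 0.05, and voom on the reads called 0, while the fit with the podocyte level as a covariate called 25. Among the 87 genes, 17 had an unadjusted p under 0.05 in that test, and 14 of these 17 were lower in GQ-16 rats. Over all genes, 353 were higher and 504 lower in GQ-16 rats at that p. The 87 genes were chosen from the same GQ-16 values, so the counts among them carry no test.

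**Figure D1:**
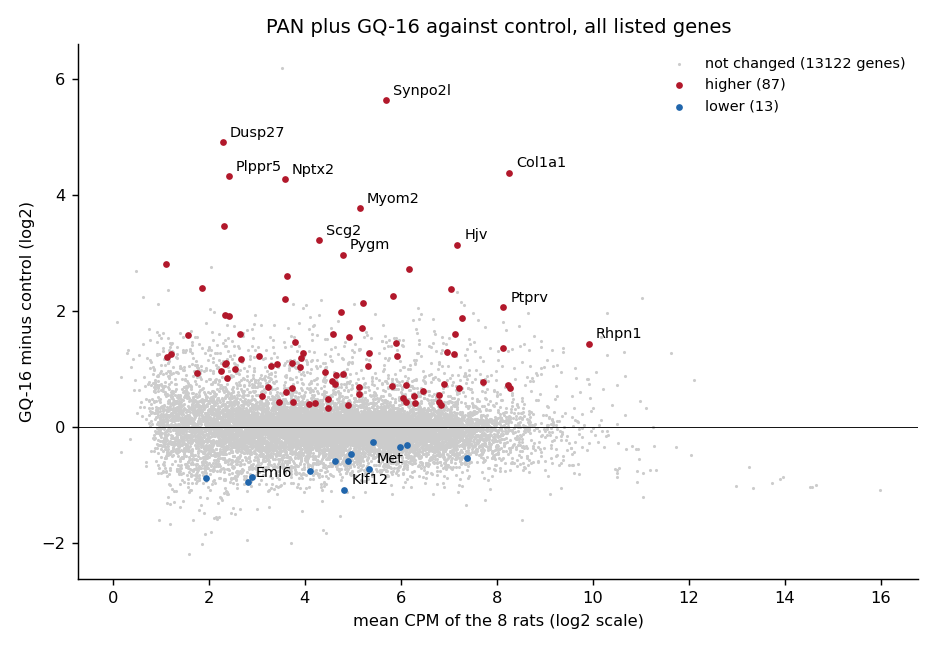
Each point is 1 of 13222 genes, placed by its mean CPM over the 8 rats (x, log2 scale) and by the GQ-16 minus control difference (y, log2). The 87 genes that passed as higher are red and the 13 that passed as lower are blue. Synpo2l, Dusp27 and Col1a1 lie highest among the red points, and no blue point lies below Klf12.

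The striated muscle list held 20 listed genes, of which 4 were higher (20% against 0.658% of all genes), 0 were lower and 16 did not pass. It was written with earlier results of these data known, 20 of its 57 written genes are in the table, and these shares were not tested. Synpo2l, 1 of the 4, reached 2 CPM in 1 control library and entered the table through the injured groups. The list's median difference was 0.95 beside -0.01 over all genes, and 14 of the 20 values were positive. With the podocyte level described above as a covariate the median was 0.17 and 1 of the 20 passed. Without control rat 1, 10 passed, beside 1078 of all 13222 genes, and without control rat 3 or GQ-16 rat 3, 1 passed. In PAN against control, 9 of the 20 were higher, with a median of 0.85. Synpo2l, a synaptopodin relative found at the Z-discs of heart and skeletal muscle, stood at 2.09, 1.33, 0.862 and 1.21 median-centred CPM in the control rats. In the GQ-16 rats it stood at 25.4, 33.0, 78.3 and 266.5. The groups did not overlap, and GQ-16 rat 4 was far above the other GQ-16 rats. The log2 difference was 5.63 ± 0.61 (SE, adjusted p = 0.00123, limma). The mean was 134 ± 33.5 (SD, n = 4) in PAN rats and 69.1 ± 35.0 in pioglitazone rats, and the GQ-16 minus PAN difference was -1.01 ± 0.61 (SE, adjusted p = 0.844). By voom on the reads the adjusted p was 0.0654, and 0 of the 20 listed genes passed.

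Dusp27, Myoz1 and Nexn are not on the striated muscle list and were set beside it after their values were seen. Dusp27, named Styxl2 in RefSeq, encodes a phosphatase-like protein of the sarcomere without catalytic activity. Between 2 and 8 reads fell on it in each control library and between 61 and 278 in each GQ-16 library. Its levels were 0.546, 0.179, 0.287 and 0.266 in control rats and 6.57, 5.67, 9.89 and 16.3 in GQ-16 rats. It had the smallest adjusted p of all genes (0.000295, limma) at a log2 difference of 4.90 ± 0.45 (SE). No control library reached 2 CPM, the level that every gene of the table meets in 8 or more libraries, so Dusp27 entered the table only through the injured groups, in which it was high. PAN rats averaged 11.4 and pioglitazone rats 7.48.

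Pygm, the muscle form of glycogen phosphorylase, was 7.55, 6.13, 4.31 and 6.18 in control rats and 28.03, 33.3, 66.5 and 74.7 in GQ-16 rats. The difference was 2.97 ± 0.45 (SE, adjusted p = 0.0128). PAN rats had a mean of 177, above every GQ-16 rat, and the GQ-16 minus PAN difference of -1.90 ± 0.45 had an adjusted p of 0.358 (unadjusted p = 0.0008). The GQ-16 rats were also in between for Ldb3, a PDZ-LIM protein of the Z-disc. It was 2.54, 2.40, 1.68 and 1.80 in control rats, 4.81, 6.41, 10.1 and 12.7 in GQ-16 rats, and 29.5 on average in PAN rats. The GQ-16 rats differed from control by 1.93 ± 0.31 (adjusted p = 0.0157) and from PAN rats by -1.82 (unadjusted p = 3.02e-05, adjusted p = 0.115).

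Myom2, which encodes the M-band protein myomesin 2, rose from a control mean of 6.05 ± 6.89 (SD, n = 4) to 64.4 ± 57.3. Its control rats were uneven, at 16.02, 1.90, 1.03 and 5.24, with control rat 1 highest. The GQ-16 rats were at 30.2, 22.0, 58.2 and 147. Myoz1, a Z-disc protein that binds calcineurin, rose by 2.61 ± 0.55 (adjusted p = 0.0462). Nexn, the actin-binding protein nexilin, rose by 1.99 ± 0.36 (adjusted p = 0.0275) from a control mean of 12.5 to 43.2.

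Other higher genes of the contractile and actin machinery, chosen after their values were seen, had smaller differences or lower levels. Abra, which activates serum response factor through actin, was 2.81 log2 higher at a GQ-16 mean of 3.84 CPM. Ppp1r14a, an inhibitor of myosin phosphatase, was 1.18 higher. Pdlim1 was 1.23 higher, Csrp1 0.73 higher and Trip6 0.56 higher, all of them LIM domain proteins tied to actin or focal adhesions. Myl12a, a regulatory light chain of non-muscle myosin, was 1 of 46 listed actin and contractility genes to pass (2.17% against 0.658% of all genes), rising by 0.68 ± 0.13 (adjusted p = 0.035). The other 45 did not pass, 35 of the 46 values were positive, and the median was 0.18. With control rat 1 left out, 12 of these 46 passed, beside 1078 of all 13222 genes. Without control rat 3 or GQ-16 rat 3, 0 of the 46 passed.

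**Figure D2:**
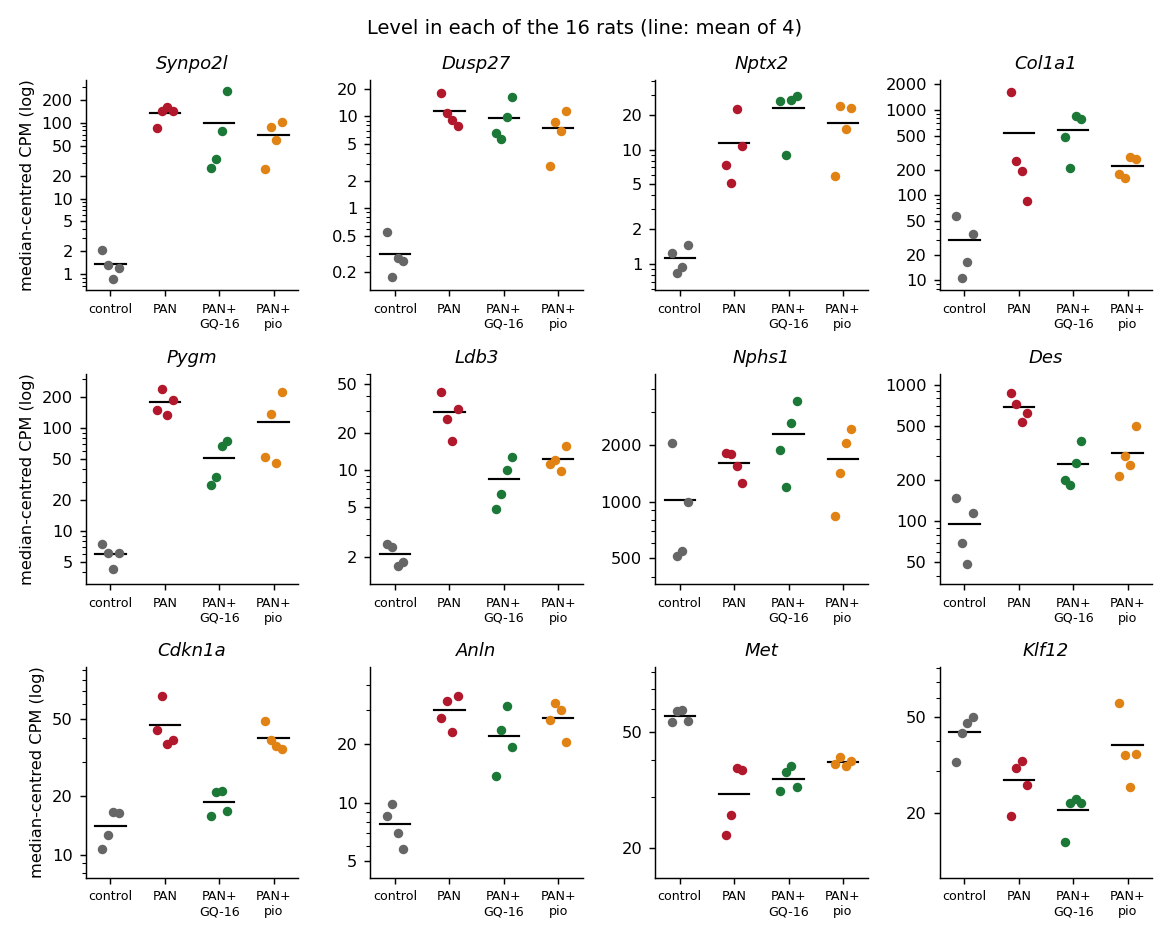
Levels of 12 genes in each of the 16 rats, in median-centred CPM on a log axis, with a line at the mean of 4 rats. For Synpo2l, Dusp27 and Nptx2 every GQ-16 rat lies above every control rat, while Pygm and Ldb3 in GQ-16 rats lie between control and PAN rats.

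Promoter sequences of these genes were searched because several muscle genes rose together, and the 2 windows of genes that passed and held a CArG box are shown. RefSeq windows of 300 bases, 250 before to 50 after the start, in build GRCr8 were matched for 70 of the 87 higher genes and for 9886 of the 13222 listed genes. The CArG box, M-CAT and DR1 motifs were searched on both strands. The CArG box, the site of serum response factor, was found in 2 of 70 windows (2.86%), beside 1.24% of listed genes and 1.64% of the 27457 windows of the table. The M-CAT element CATTCC, bound by TEAD factors, was in 11 of 70 (15.7%), beside 11.1% of listed genes and 13.9% of all windows. It was in 4 of 14 windows of the striated muscle list and in 0 of the 3 windows of its genes that passed. The DR1 element, 2 copies of AGGTCA with 1 base between them and the form of site bound by PPAR with RXR, was in 0 of 70, beside 0.0202% of listed genes. Overlap between motifs was allowed. In the windows below the capitals mark the CArG box.
Ldb3, chr16:9924630-9924929, minus strand, motif beginning 52 bases before the start: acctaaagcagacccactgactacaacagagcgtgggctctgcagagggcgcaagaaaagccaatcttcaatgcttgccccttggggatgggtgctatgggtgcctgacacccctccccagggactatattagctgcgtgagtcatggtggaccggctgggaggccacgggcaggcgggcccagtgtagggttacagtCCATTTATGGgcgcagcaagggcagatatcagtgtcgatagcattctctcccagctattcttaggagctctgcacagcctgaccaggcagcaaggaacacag
Trip6, chr12:25022709-25023008, plus strand, motif beginning 18 bases before the start: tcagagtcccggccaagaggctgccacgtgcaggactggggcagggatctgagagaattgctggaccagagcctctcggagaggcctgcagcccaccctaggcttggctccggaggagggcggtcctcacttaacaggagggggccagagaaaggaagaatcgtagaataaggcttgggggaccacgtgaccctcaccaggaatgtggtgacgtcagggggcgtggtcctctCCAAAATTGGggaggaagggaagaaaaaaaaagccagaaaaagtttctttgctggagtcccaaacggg
On the striated muscle list, 3 of 14 matched windows (21.4%) held a CArG box, and 1 of those genes (Ldb3) passed the test. The other 2 were Nebl, with CCTAATAAGG at a log2 difference of 0.54, and Myl3, with CCTTTTATGG at 0.14. A match describes the letters of the window and was not tested as a binding site.

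The neuronal list held 21 listed genes, of which 3 were higher (14.3% against 0.658% of all genes), 0 lower and 18 did not pass, with a median difference of 0.45. Nptx2, 1 of the called members, reached 2 CPM in no control library and entered the table only through the injured groups. The median was -0.06 with the podocyte level and 0.17 with the tubule level as a covariate. When control rat 1 was left out, 7 passed, beside 1078 of all 13222 genes, and without control rat 3 or GQ-16 rat 3, 1 passed. In PAN against control, 7 were higher and 1 lower. Nptx2, a secreted pentraxin that clusters glutamate receptors at synapses, was 1.25, 0.825, 0.944 and 1.45 in control rats. In GQ-16 rats it was 26.7, 8.99, 27.5 and 29.2, with GQ-16 rat 2 well below the other 3. The log2 difference was 4.26 ± 0.52 (SE, adjusted p = 0.00295, and 0.0567 by voom). Here the PAN mean of 11.5 lay below the GQ-16 mean of 23.1, and the GQ-16 minus PAN difference was 1.10 ± 0.52 (adjusted p = 0.765). Scg2, secretogranin II of dense-core vesicles, averaged 4.97 in control and 34.8 in GQ-16 rats, with control rat 1 at 12.8 and GQ-16 rat 2 at 14.2. The synaptic vesicle protein Sv2a rose by 0.70 ± 0.12 (adjusted p = 0.0242), from 43.5 to 48.6 in control rats to between 56.6 and 96.8 in GQ-16 rats.

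Signalling and membrane genes outside these lists were among the largest rises. Plppr5, a membrane protein of the phospholipid phosphatase-related family, had levels of 1.51, 0.466, 0.123 and 0.444 in control rats and 5.69, 5.95, 9.29 and 19.7 in GQ-16 rats. Colq, the collagen-like tail that anchors acetylcholinesterase, was chosen after its values were seen. It averaged 0.862 in control and 9.15 in GQ-16 rats, a difference of 3.46. Hjv, the BMP co-receptor hemojuvelin, was 75.0, 13.4, 13.3 and 35.8 in control rats and 165, 140, 270 and 462 in GQ-16 rats, a log2 difference of 3.14 ± 0.56 (SE, adjusted p = 0.0258). Adm, the vasodilator peptide adrenomedullin, rose by 2.26 ± 0.42 (adjusted p = 0.0291), from 22.2 ± 16.1 (SD, n = 4) to 95.6 ± 39.2. Socs1, which inhibits JAK-STAT signalling downstream of cytokine receptors, rose by 2.20 ± 0.32 (adjusted p = 0.0112), from between 3.19 and 5.53 in control rats to between 13.1 and 34.7 in GQ-16 rats.

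The receptor-type tyrosine phosphatase Ptprv rose from 117.0 to 466, the mucin-like Parm1 from 13.3 to 63.4 and the transporter relative Abcg3l3 from 44.0 to 233. Abcg3l3 belongs to a family of near-identical copies, and how reads were divided among them is not given in the sources used here. Bambi, a decoy receptor of the TGF-beta family, and Ehd2, a protein of caveolae, were chosen after their values were seen and were 1.61 and 1.30 log2 higher. On the list of 41 TGF-beta and BMP genes itself, 0 passed in either direction, with 8 higher and 6 lower at an unadjusted p under 0.05 (limma) and 0 by voom on the reads. Over all genes, 13.6% were higher and 10.1% lower at that p. Without control rat 1, 7 of the 41 passed, beside 1078 of all 13222 genes.

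Col1a1, a chain of collagen I, was 56.6, 10.8, 16.6 and 35.2 in control rats and 477, 209, 854 and 789 in GQ-16 rats. The groups did not overlap, and the difference was 4.38 ± 0.75 (SE, adjusted p = 0.0242). It did not pass in a fit of the 2 groups alone (adjusted p = 0.0604) or with the podocyte level as a covariate (adjusted p = 0.14). The GQ-16 mean of 582 ± 298 (SD, n = 4) stood beside 220 in pioglitazone rats. The PAN rats were uneven, at 1617, 255, 193.5 and 84.8, so their mean of 537 ± 723 (SD, n = 4) was set largely by PAN rat 1. Of 37 listed interstitial and matricellular matrix genes, Col1a1 alone passed (2.7% against 0.658% of all genes), with 31 positive values and a median of 0.57. With control rat 1 left out, 10 of the 37 passed, beside 1078 of all 13222 genes. Without control rat 3 or GQ-16 rat 3, 0 of the 37 passed. The median was 0.12 with the tubule level and 0.34 with the podocyte level as a covariate. Ecm1, extracellular matrix protein 1, and Ccdc80, a secreted matrix-binding protein, are on no list and were chosen after their values were seen. They rose by 1.87 ± 0.33 (SE, adjusted p = 0.0258) and 1.36 ± 0.25 (SE, adjusted p = 0.0292). In PAN against control, 17 of the 37 were higher and the median was 1.15. Fibronectin (Fn1) was 321 in control and 355 in GQ-16 rats (adjusted p = 0.868). None of 23 basement membrane genes passed by limma, and 0 by voom. At an unadjusted p under 0.05 (limma), 6 of the 23 were higher, beside 13.6% of all genes. Without control rat 1, 3 of the 23 passed, beside 1078 of all 13222 genes. The median of the 23 was 0.17, and -0.04 with the tubule level as a covariate. Col4a1, a main collagen IV chain, was 1665 in control and 1965 in GQ-16 rats (adjusted p = 0.563).

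Of 25 listed metalloproteinases and inhibitors, 2 rose (8% against 0.658% of all genes) and 23 did not pass. When control rat 1 was left out, 5 passed, beside 1078 of all 13222 genes. Without control rat 3 or GQ-16 rat 3, 0 of the 25 passed. The list's median was 0.32, and 0.001 with the tubule level as a covariate. Adamts12, a secreted metalloproteinase, rose by 1.60 ± 0.34 (adjusted p = 0.0494), from 5.04, 4.34, 1.68 and 2.34 in control rats to 5.86, 11.5, 15.8 and 6.86 in GQ-16 rats. The metalloproteinase inhibitor Timp2 rose by 1.26 ± 0.26 (adjusted p = 0.0462), from 86.4 to 205. Adamts14, which trims procollagen, was chosen after its values were seen. It was 2.09, 1.90, 2.75 and 2.04 in control rats, 3.88, 7.97, 13.98 and 10.1 in GQ-16 rats, and 34.1 on average in PAN rats, so the GQ-16 rats lay between the other groups.

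Of 41 listed podocyte genes, 1 passed the test. Rhpn1, a rhophilin needed by podocytes, was the 1 of 23 podocyte transcription factor and cytoskeleton genes to pass (4.35% against 0.658% of all genes), rising by 1.43 ± 0.29 (adjusted p = 0.0443). It was 908, 340, 437 and 605 in control rats and 1407, 1138, 1656 and 1642 in GQ-16 rats. At an unadjusted p under 0.05, 19 of the 23 were higher, beside 13.6% of all genes. All 23 values on that list were positive, with a median of 1.28, beside 1.003 in PAN against control. None of the 18 slit diaphragm and membrane genes passed, with 7 higher at an unadjusted p under 0.05 (limma) and 0 by voom on the reads, and their median was 0.77.

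Nphs1, the slit diaphragm protein nephrin, was 2046, 512, 544.0 and 998 in control rats and 1885, 1199, 2623 and 3443 in GQ-16 rats (difference 1.29, adjusted p = 0.112). Control rat 1 was above GQ-16 rats 1 and 2, so the groups overlapped. The transcription factor Wt1 differed by 1.44 (adjusted p = 0.088), the actin organiser Synpo by 1.39 (adjusted p = 0.156) and the surface sialomucin Podxl by 0.33 (adjusted p = 0.392). Without control rat 1, 19 of the 23 and 7 of the 18 passed, beside 1078 of all 13222 genes. Leaving out each of the other 7 rats in turn gave 0 or 1 of the 23 and 0 of the 18.

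Desmin (Des), the intermediate filament protein used as a marker of podocyte injury, did not pass in GQ-16 against control. It was 149, 69.4, 48.7 and 115 in control rats and 200, 186, 269 and 389 in GQ-16 rats, and the groups did not overlap (difference 1.52 ± 0.34, adjusted p = 0.0522). PAN rats averaged 685, and GQ-16 minus PAN was -1.43 with an unadjusted p of 0.000837 (adjusted p = 0.358). With the podocyte level as a covariate, 25 genes passed in GQ-16 against PAN, 4 higher and 21 lower. Des was lowest in adjusted p there together with Gpc1 (Des -1.56, adjusted p = 0.00286), and Cdkn1a (-1.25, adjusted p = 0.0113), Ldb3 (-1.88, adjusted p = 0.0146) and Adamts14 (-2.04, adjusted p = 0.035) also passed. Of 11 intermediate filament genes in all, 0 passed by limma or voom, and the median was 0.40. At an unadjusted p under 0.05 (limma), 7 of the 11 were higher, beside 13.6% of all genes. Vimentin (Vim) was 516, 255.0, 230.5 and 318 in control rats and 631, 512, 878.0 and 1380.0 in GQ-16 rats (adjusted p = 0.0522), beside a PAN mean of 804. Without control rat 1 both Des and Vim passed (adjusted p = 0.0138 and 0.0127).

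Of 22 endothelial genes, 0 passed by limma (2 higher and 3 lower at an unadjusted p under 0.05) or by voom, 20 had negative values and the median was -0.35. With the podocyte level as a covariate that median was 0.11. Ptprb, an endothelial tyrosine phosphatase, was 573, 1065, 934 and 935 in control rats and 263, 449, 390 and 474 in GQ-16 rats (adjusted p = 0.0582), and these groups did not overlap. The fenestral diaphragm gene Plvap was 94.8 in control and 136 in GQ-16 rats (adjusted p = 0.0881), and its groups did not overlap either. Of 19 mesangial and smooth muscle genes, 0 passed by limma or voom, with 11 higher at an unadjusted p under 0.05, 3 higher without overlap between the groups and a median of 0.44. Over all genes, 13.6% were higher at that p and 5.9% were higher without overlap. With control rat 1 left out, 5 of the 19 passed, beside 1078 of all 13222 genes. In PAN against control, 13 of those 19 were higher, at a median of 0.90. Of 25 macrophage and leukocyte markers, 0 passed by limma or voom, 2 were lower at an unadjusted p under 0.05, and the median was -0.05. Of 13 parietal epithelial genes, 0 passed by limma or voom, 2 were lower at an unadjusted p under 0.05, and the median was -0.27.

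All 23 distal nephron and collecting duct genes had negative values, with a median of -0.68, and 10 were lower at an unadjusted p under 0.05, beside 10.1% of all genes. The median was -0.18 with the podocyte level as a covariate. The pendrin gene Slc26a4 had the smallest adjusted p of them (0.0525), at 26.1 ± 5.45 (SD, n = 4) in control and 13.2 ± 5.09 in GQ-16 rats. Of 26 proximal tubule genes, 23 had negative values, with a median of -0.53. The summed level of the proximal tubule list ran from 15600.5 to 21251 in control rats and from 8812 to 17094 in GQ-16 rats, so sieved glomeruli of both groups held tubule RNA. None of the 26 was at an unadjusted p under 0.05, and none of these 49 genes passed by limma or by voom. All 5 listed haemoglobin and red cell genes were higher at an unadjusted p under 0.05, beside 13.6% of all genes, and none passed. Hbb, beta globin, was 446 in control, 1018 in GQ-16 and 526 in PAN rats, and the haemoglobin alpha genes are near-identical copies whose reads may be divided unevenly.

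**Figure D3:**
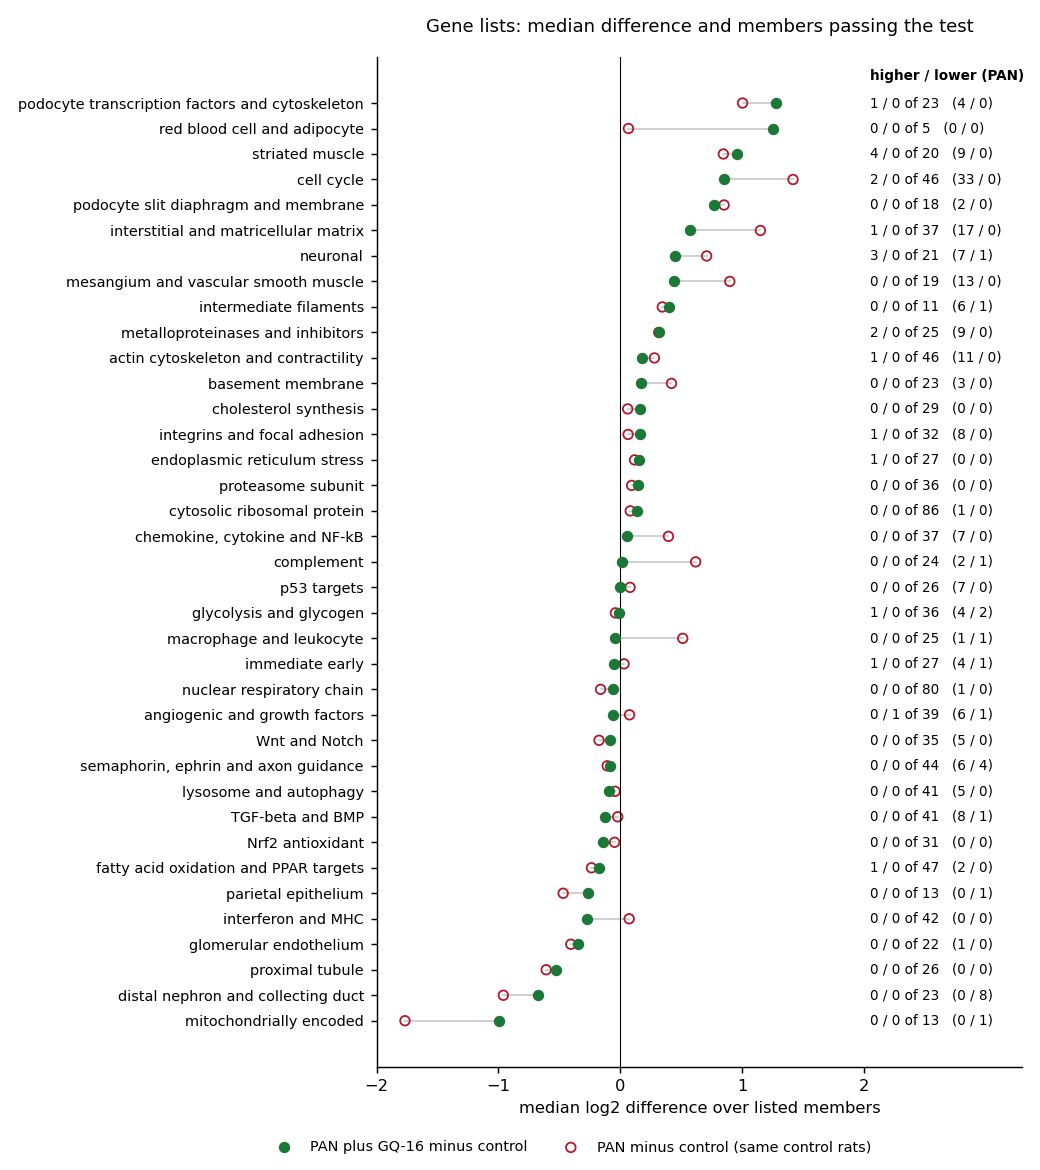
Median log2 difference over the listed members of 37 gene lists, for GQ-16 rats (filled) and PAN rats (open), each against the same 4 control rats. Numbers on the right count members that passed as higher or lower, with those of PAN rats in parentheses. Striated muscle holds 4 of 20, neuronal 3 of 21 and cell cycle 2 of 46 in GQ-16 rats, and the distal nephron median lies at -0.68.

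The mean centred log2 level of 46 listed cell cycle genes was -1.62, -1.42, -1.41 and -1.41 in the control rats. In GQ-16 rats 1 to 3 it was -0.57, -0.23 and -0.22, and GQ-16 rat 4 lay at -1.74, below every control rat. Of the 46 genes, 2 rose (4.35% against 0.658% of all genes), 0 fell and 44 did not pass. At an unadjusted p under 0.05, 33 of the 46 were higher, beside 13.6% of all genes, and the list's median was 0.85. In PAN against control, 33 of the 46 passed, with a median of 1.42. Without GQ-16 rat 4, 34 of the 46 passed in GQ-16 against control, beside 241 of all 13222 genes. Leaving out each of the other rats gave 0 to 5 of the 46.

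Anln, anillin, which builds the contractile ring of dividing cells, rose by 1.46 ± 0.24 (SE, adjusted p = 0.0181). It was 8.51, 9.86, 7.02 and 5.77 in control rats and 13.8, 23.6, 31.2 and 19.2 in GQ-16 rats. Ccnd3, a D-type cyclin of the G1 phase, rose by 0.43 ± 0.08 (adjusted p = 0.0258), from between 58.7 and 67.3 to between 77.5 and 91.9. Dctd, which feeds thymidylate synthesis, and Stil, needed for centriole duplication, were chosen after their values were seen and were 1.70 and 1.25 log2 higher.

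Cdkn1a, the p53 target that encodes the cell cycle inhibitor p21, was close to control in the GQ-16 rats. It was 10.6, 12.7, 16.5 and 16.4 in control rats and 15.9, 21.0, 21.4 and 16.7 in GQ-16 rats, and the groups overlapped. The difference was 0.42 with a 95% interval from 0.02 to 0.83 before adjustment (adjusted p = 0.196). PAN rats averaged 46.6 ± 13.3 (SD, n = 4) and pioglitazone rats 39.8 ± 6.24, and GQ-16 minus PAN was -1.29 ± 0.19 (SE, adjusted p = 0.0962, the smallest of all genes in that test). Of 26 listed p53 targets, 0 passed in GQ-16 against control by limma, with 7 higher and 3 lower at an unadjusted p under 0.05, and 0 by voom. Over all genes, 13.6% were higher and 10.1% lower at that p. In PAN against control 7 of the 26 passed. In GQ-16 against control 3 of the 26 passed without control rat 1, beside 1078 of all 13222 genes. With array weights 6 of the 26 passed, beside 2283 of all 13222 genes.

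Of 47 listed fatty acid oxidation and PPAR target genes, 1 passed (2.13% against 0.756% of all genes), 35 had negative values and the median was -0.18. With the tubule level as a covariate the median was 0.05. Cpt1b, the muscle-type carnitine palmitoyltransferase that carries fatty acids into mitochondria, rose by 1.22 ± 0.26 (adjusted p = 0.0462). It was 5.94, 5.70, 4.06 and 4.82 in control rats, 7.84, 10.7, 13.3 and 17.6 in GQ-16 rats and 23.8 on average in PAN rats. Pdk4, the kinase that limits glucose oxidation, was 3.32 in control and 6.38 in GQ-16 rats (adjusted p = 0.188). Pygm was the 1 of 36 glycolysis and glycogen genes to pass (2.78% against 0.756% of all genes). The 13 protein-coding mitochondrial genes all had negative values, at a median of -0.995, and 0 passed by limma (1 lower at an unadjusted p under 0.05) or by voom. With the podocyte level as a covariate their median was 0.33. The 80 nuclear respiratory chain genes had a median of -0.06, and 0 passed by limma (3 higher and 1 lower at an unadjusted p under 0.05) or by voom.

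Of 27 endoplasmic reticulum stress genes, 1 passed (3.7% against 0.756% of all genes). At an unadjusted p under 0.05, 4 of the 27 were higher, beside 13.6% of all genes, and 1 was lower. The gene that passed was Atf4, a transcription factor of the integrated stress response, with a rise of 0.38 ± 0.08 (limma, adjusted p = 0.043). Atf4 passed in 4 of 10 alternative settings and in 2 of 8 runs with 1 rat left out. It was 104, 102, 106 and 120 in control rats and 141, 128, 141 and 151 in GQ-16 rats, and in PAN rats the same gene averaged 127 (adjusted p = 0.0737 against control). Nr4a1, an orphan nuclear receptor of the immediate early class, rose by 0.73 ± 0.14 (adjusted p = 0.0397) and was the 1 of 27 immediate early genes to pass (3.7% against 0.756% of all genes). Cd151, a tetraspanin partner of laminin-binding integrins, rose by 0.67 ± 0.12 (adjusted p = 0.0258) as the 1 of 32 integrin and adhesion genes (3.12% against 0.756% of all genes). When control rat 1 was left out, 11 of the 32 passed, beside 1078 of all 13222 genes. Without control rat 3 or GQ-16 rat 3, 0 of the 32 passed. Of 36 proteasome subunits, 0 passed by limma or voom, 30 values were positive and 16 were higher at an unadjusted p under 0.05, beside 13.6% of all genes, at a median of 0.14. Complement (24 genes), interferon and MHC (42), chemokine and NF-kB (37), Nrf2 (31), cholesterol synthesis (29), lysosome (41), Wnt and Notch (35), axon guidance (44) and cytosolic ribosomal protein (86) lists had 0 called members each by limma. At an unadjusted p under 0.05 they ranged from 2 lower interferon and MHC genes to 10 higher and 10 lower axon guidance genes. Their medians lay between -0.27 for interferon and MHC and 0.16 for cholesterol synthesis, and voom called 0 members of each. Without control rat 1, 13 axon guidance, 5 chemokine and NF-kB and 5 Wnt and Notch genes passed, beside 1078 of all 13222 genes.

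Among the 13 lower genes were Met, Klf12, Trps1 and Ncoa1. Met, the receptor of hepatocyte growth factor, fell from 54.2, 58.8, 59.4 and 54.6 in control rats to 31.5, 36.5, 38.2 and 32.3 in GQ-16 rats. The difference was -0.72 ± 0.14 (SE, adjusted p = 0.0378), with 30.7 on average in PAN rats and 39.5 in pioglitazone rats. Met was the 1 of 39 listed angiogenic and growth factor genes to pass (2.56% against 0.756% of all genes), at a list median of -0.06. With control rat 1 left out, 10 of the 39 passed, beside 1078 of all 13222 genes. Vegfd, a growth factor of lymphatic and blood vessels, is on no list and was chosen after its values were seen. It rose by 1.55 ± 0.24 (SE, adjusted p = 0.0141), from 16.5 ± 4.49 (SD, n = 4) to 47.9 ± 14.1, with 72.7 on average in PAN rats. The transcriptional repressor Klf12 fell from 32.7, 43.1, 47.2 and 50.4 to 15.2, 22.1, 23.0 and 22.2, a difference of -1.08 ± 0.23 (adjusted p = 0.0499). Wasf3, which drives actin branching, fell by 0.86 on the log2 scale, and the GATA-type repressor Trps1 fell by 0.76. Ncoa1, a coactivator of nuclear receptors, fell by 0.34 ± 0.06 (adjusted p = 0.0288), from between 75.8 and 81.3 to between 58.0 and 65.5. Eml6, of a family of microtubule-binding proteins, fell from 10.6 to 5.48. The long non-coding RNA Tug1 fell by 0.26. In all 13 genes the groups did not overlap, and 9 of the 13 also passed as lower in PAN rats against the same controls. Of all 13222 genes, 753 were lower without overlap, and 236 passed as lower in PAN rats.

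The filter behind the deposited table was not even-handed between groups. A level of 2 CPM was met by each gene of the table in 8 or more of the 16 libraries, so a gene expressed in the 4 control rats alone could not enter. Of the listed genes, 114 were under 2 CPM in all 4 control rats, and 9 of these passed as higher. Dusp27 and Nptx2 are among these 9, with Abra, Plppr5, Colq, Stil, Camkv, Slc9a5 and AABR07028352.1, so they entered the table through the injured groups, in which they were high. Listed genes under 2 CPM in all 4 GQ-16 rats numbered 6, and those under 2 CPM in all 12 injured rats numbered 0. The control mean was under 5 median-centred CPM for 23 of the 87 higher genes. A gene that did not pass but had the largest difference of all was LOC690507, chosen after its values were seen, at a mean of 0.497 in control, 22.5 in GQ-16 and 132 in PAN rats (log2 difference 6.18 ± 1.43, adjusted p = 0.0525).

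The rats differed in how far the higher genes stood from control. The median over the 87 genes, in log2 above the mean of the controls, was 0.84, 1.04, 1.22 and 1.18 in GQ-16 rats 1 to 4. It was 0.31 in control rat 1 and -0.12, -0.25 and 0.06 in control rats 2, 3 and 4. Control rat 1 was the highest control rat in 67 of the 87 genes, and GQ-16 rat 4 the highest GQ-16 rat in 49. Since these genes were chosen by the contrast itself, these values describe the rats and carry no test. Control rat 1 was also the control rat with the highest podocyte level, and GQ-16 rat 4 had the highest podocyte and the lowest tubule level of its group. With the podocyte level as a covariate, 18 genes passed, 13 of them among the 100. These 13 included Synpo2l (4.47, adjusted p = 0.00369), Dusp27 (3.89), Nptx2 (3.53), Plppr5, Colq, Hjv, Socs1 and Adm. The 5 genes outside the 100 were Mcm10, Fam110a and Pcna, which were higher, and Ptpn13 and Magi2, which were lower. Magi2, a scaffold protein of the slit diaphragm and itself a member of the podocyte level, was -1.97 in that fit (adjusted p = 5.12e-05) and -0.56 without the covariate (adjusted p = 0.527). With the tubule level as a covariate Synpo2l, Dusp27 and Nptx2 passed, 3 genes in all. The part of these tissue levels in the other differences was not tested, since they differ between the groups as well.

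**Figure D4:**
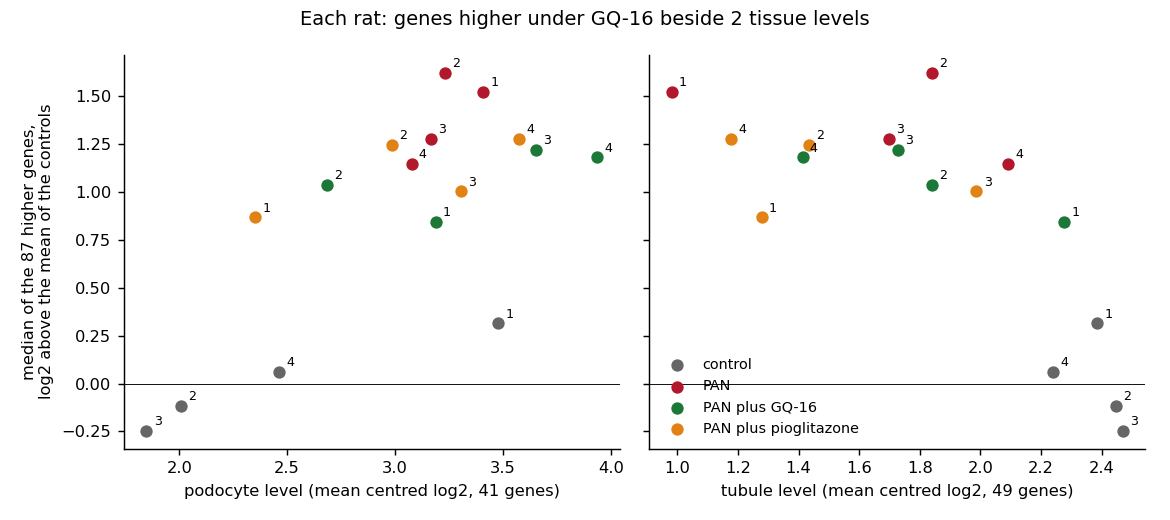
Each point is 1 of 16 rats, numbered within its group, placed by its podocyte level or tubule level (x, mean centred log2) and by the median of the 87 higher genes above the control mean (y, log2). The 87 genes were chosen from the control and GQ-16 rats shown. Control rat 1 lies above the other control rats at 0.31, and the 4 GQ-16 rats lie between 0.84 and 1.22.

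The number of genes that passed rested on single rats. When control rat 1 was left out, 1078 genes passed, all 100 among them. Without control rats 2, 3 and 4 in turn, 16, 4 and 17 passed. Without GQ-16 rats 1 to 4 in turn, 102, 120, 3 and 241 passed. Of the 100 genes, Synpo2l, Dusp27 and Nptx2 passed in all 8 of these runs, and the other 97 did not. All 3 had entered the table through the injured groups, since Dusp27 and Nptx2 reached 2 CPM in no control library and Synpo2l in 1.

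**Figure D5:**
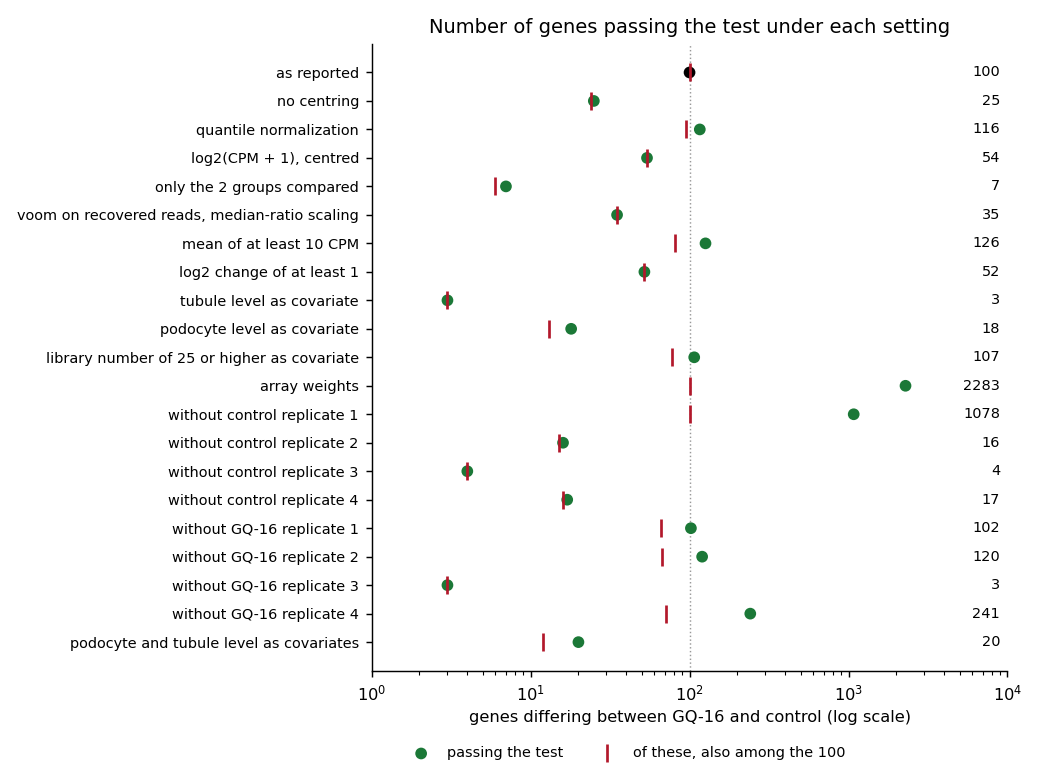
Number of genes that passed the test for GQ-16 against control under each setting (dots, log axis), and how many of them are among the 100 reported (red ticks). The counts run from 3 to 2283, and all 100 are kept without control replicate 1 and with array weights.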

How the data were processed

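PolyA RNA of isolated glomeruli was sequenced as stranded paired-end libraries, per the labels' protocols. The authors deposited 1 table of log2 CPM values for 16 libraries, and HISAT2, featureCounts, Subread, limma and build Rnor_6.0 stand in the submitters' processing notes without roles or versions. Whether counting used strand is not given in the sources used here. With 0.5 added to each count and 1 to each total, 100% of values gave whole reads within 0.01. Each column was centred on its median. Differences are on that log2 scale, which understates changes of genes with few reads. limma 3.58.1 (R 4.3.3; lmFit, eBayes with trend) fitted 4 group means over all 16 libraries with 12 residual degrees of freedom, and p-values were Benjamini-Hochberg adjusted over 13222 genes. The code was tested on simulated data.

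Named genes are the 15 largest rises and falls that did not overlap and averaged 5 CPM or more, up to 6 called members per list (or the 2 with the smallest p), 16 genes fixed by name and the 5 smallest p in each direction. Others are said to be chosen after their values were seen. The 37 lists and their member genes were chosen with earlier results of these data known, so no list was tested as a set. Symbols of 12002 genes matched RefSeq. No 2 libraries of the same group agreed within sampling noise. The alternatives were no centring, quantile normalization, log2(CPM + 1), a fit of the 2 groups alone, voom on the reads, a filter of 10 CPM, a 2-fold threshold, tissue levels or library number as covariates, array weights and leaving out each rat.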

Additional observations from a re-analysis of the deposited data

Results flagged for a closer look

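In 10 of 278 groups of 4 rats examined, 1 rat lay far from the other 3 by Dixon's criterion, where chance alone gives about 13.9 (1 in 20). Levels are median-centred CPM. Control rat 1 was set apart as high for Npnt, the matrix protein nephronectin of podocytes (435.1, others 101.4 to 123.5), and for Asah1, acid ceramidase (83.58, others 54.74 to 56.59). The same rat was set apart as low in the mean centred log2 level of the endothelial list (3.206, others 3.734 to 3.789) and of the cell cycle list (-1.621, others -1.415 to -1.407). Control rat 3 was set apart as high for the cholesterol synthesis gene Fdps (69.99). GQ-16 rat 2 was set apart as low for Nptx2 (8.987, others 26.71 to 29.23) and for Gpx2, a glutathione peroxidase (3.088). GQ-16 rat 1 was set apart as low for Klf12 (15.16) and for the Wnt and Notch list level (0.03138), and as high for the fatty acid oxidation and PPAR target list level (1.074, others 0.848 to 0.8683).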

How the results depend on the processing

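GQ-16 against control gave 100 genes as reported. It gave 25 without centring, 54 on log2(CPM + 1), 7 with the 2 groups alone, 35 by voom, 52 with a 2-fold threshold, 3 with the tubule level and 18 with the podocyte level as covariate, 2283 with array weights, and 20 with both levels together, a fit added after seeing the data. Leaving out 1 rat gave 3 to 1078. The other settings stayed within 1.5 times. PAN against control gave 1077, and 2964 without centring, 694 with the 10 CPM filter, 511 with the 2-fold threshold, 142 with the tubule level, 608 with the podocyte level, 357 with library number and 4628 with array weights, and 465 to 1807 without 1 rat. GQ-16 against PAN gave 0, and 2 without centring, 25 with the podocyte level, 4 with array weights and 0 without any 1 rat. The mitochondrial read share, GQ-16 against control, differed by -14.9 to -5.46 percentage points with 1 rat left out.

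No named gene that passed changed sign. Among genes not called, the tubule level reversed Fn1 (-0.32), Slc5a2 (0.056) and Hnf4a (0.17). The podocyte level reversed Synpo (-0.088), Podxl (-0.15), Fn1 (-0.081), Mt-nd4 (0.28) and Mt-nd4l (0.058). Both together reversed Synpo (-0.049), Lcn2 (-0.18), C1r (-0.11), Asah1 (-0.038), Podxl (-0.25), Fn1 (-0.41), Umod (0.12), Hnf4a (0.13), Mt-nd4 (0.53) and Mt-nd4l (0.34). Synpo and Podxl are members of the podocyte level, and Slc5a2, Hnf4a and Umod of the tubule level. A level that contains a gene takes up part of that gene's difference, so these reversals are no separate check of those genes. Of the 37 list medians, 12 had the other sign with the podocyte level, among them slit diaphragm (-0.082), endothelial (0.11), neuronal (-0.06) and mitochondrially encoded genes (0.33), and 9 with the tubule level, among them proximal tubule (0.29). The podocyte level is the mean of the slit diaphragm and the other podocyte list, and the tubule level that of the proximal tubule and distal nephron lists. Medians of these lists under their own level were therefore pulled towards no difference by construction. For the other genes and lists the cause was not tested. No called gene passed under every alternative that tested it except Dusp27, which the 10 CPM filter leaves out. Genes with few reads in the control libraries, such as Dusp27, have imprecise levels there. No paired analysis was possible because the labels give no number shared between rats of different groups.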
